A study of Sus scrofa with 12 samples.

Results

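The genes described here encode the subunits of the proteasome, together with factors that assemble, activate or inhibit it. They were taken from a deposited table of 31908 genes by symbol: PSM, then a letter from A to G, then a number, leaving out the 3 immunoproteasome subunits PSMB8, PSMB9 and PSMB10. This gave 39 genes. Of these, 13 belong to the core particle (PSMA and PSMB), 23 to the regulatory particles and their partners (PSMC, PSMD and PSME), and 3 are core assembly factors or an inhibitor (PSMG3, PSMG4 and PSMF1). A level of at least 1 FPKM (the reads of a gene relative to its length and to the reads of the whole library) in at least 3 libraries was required for testing. It was reached by 36 of the 39 genes: 11 core, 22 regulatory and the other 3. PSMA8 and PSMB11, core subunits known from testis and thymus respectively, were listed at 0 in all 12 libraries. PSME1 had 2 to 18 reads per library and was not tested. PSMB5, PSMB6, PSMG1 and PSMG2 had no match by symbol and were not analysed here.

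The proteasome is the protease that degrades proteins tagged with ubiquitin. Its core particle is a barrel of alpha rings (PSMA) around beta rings (PSMB), and PSMB5, PSMB6 and PSMB7 carry its catalytic sites. The regulatory cap uses a ring of ATPases (PSMC) to unfold substrates and non-ATPase subunits (PSMD) to bind them and remove their ubiquitin. PSME proteins form other caps. In muscle, the ubiquitin and proteasome system is known for the turnover of myofibrillar proteins and of myogenic regulators.

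The study sequenced RNA of pig muscle satellite cells, the stem cells of skeletal muscle, in 4 groups of 3 libraries. The genotype tag names the groups WT_0h, CBP_0h, WT_60h and CBP_60h, and the columns call the WT libraries NC. Cells at 0h are labelled as proliferating and cells at 60h as differentiating. The WT groups are called control here and the others the CBP arm. A protocol text on every library, the controls included, names SGC-CBP30, a bromodomain inhibitor directed at the acetyltransferases CBP and p300. It gives 5 uM/ml for 48 h in proliferation and 60 h in differentiation. Reading the CBP arm as the cells given the compound is therefore an interpretation, and what the control cells received is not stated. All groups carry the cell line name C3H, usually a mouse name, beside the organism pig, and growth in RPMI with fetal bovine serum. Nothing says that the 3 libraries of a group came from separate cultures, so p-values measure the spread between these libraries, which may be technical.

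Library totals recovered from the steps of the FPKM values were 16095335 to 19155240 reads. All 6 muscle lineage markers (PAX7, MYF5, MYOD1, MYOG, DES and MYMK) were detected, and their summed level was 1330 to 1350 FPKM in control cells and 362 to 393 in the CBP arm at 0h, against 1560 to 1720 and 997 to 1060 at 60h. In control cells this sum is mostly DES and MYOG. At 60h the means of DES (831 FPKM in control cells, 342 in the CBP arm), MYOG (589, 448) and MYOD1 (5.19, 3.24) were lower in the CBP arm. Those of PAX7 (7.57, 12.3), MYF5 (87.4, 102) and MYMK (107, 124) were higher. In control cells the means of PAX7, MYF5 and MYOD1 were lower at 60h than at 0h. The summed level of 6 fibroblast markers was 805 to 832 FPKM in control cells and 413 to 430 in the CBP arm at 0h, and 3130 to 3280 and 1810 to 2000 at 60h. COL1A1 made up most of this sum. At 60h the means of COL1A1 (2850 FPKM in control cells, 1550 in the CBP arm), PDGFRB (60.5, 38.7) and DCN (99.9, 93.9) were lower in the CBP arm. Those of PDGFRA (10.3, 20.8), LUM (12.9, 15.4) and THY1 (159, 167) were higher. The summed level of 6 smooth muscle markers was 3680 to 3830 FPKM in control cells and 1440 to 1490 in the CBP arm at 0h, and 3780 to 3790 and 2640 to 2830 at 60h. ACTA2 and TAGLN made up most of it. At 60h 5 of the 6 had lower means in the CBP arm, TAGLN only slightly (1120 and 1110 FPKM). RGS5 was higher there (4.57 FPKM in control cells, 8.44 in the CBP arm). Of the 6 immune markers, CD3E and LYZ were at 0 in every library and 1, CD68, passed the filter. The 5 endothelial markers summed to 3.86 to 9.12 FPKM over all libraries, and 2 passed the filter. The muscle lineage and fibroblast sums differed between arms at each stage and between stages in each arm. The smooth muscle sum differed between arms, but overlapped between stages in control cells. The endothelial sum and CD68 overlapped between arms at 0h. The part of these marker levels in the proteasome results was not tested. In bulk RNA, fewer cells of a type and less RNA per cell cannot be told apart.

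Core subunits spanned a wide range of levels. In control cells at 0h the tested core genes ran from 15.7 FPKM for PSMB2 to 172 FPKM for PSMB4, an 11-fold range, with a coefficient of variation of 74% over the 11 genes. The 17 ATPase and non-ATPase cap genes ran from 17.8 FPKM for PSMC3 to 73.4 FPKM for PSMD8, a 4.12-fold range, with a coefficient of variation of 37.2%. The 3 lowest core genes, PSMB2, PSMA4 and PSMA6, had the longest gene models recovered from the FPKM steps (5565, 6361 and 5410 bases), whereas the models of the 6 highest were 740 to 1133 bases long. FPKM divides by this length, so the spread between core genes includes the spread of their annotated lengths. The lowest and highest genes of the cap were PSMC3 and PSMD8 in every group.

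**Figure D1:**
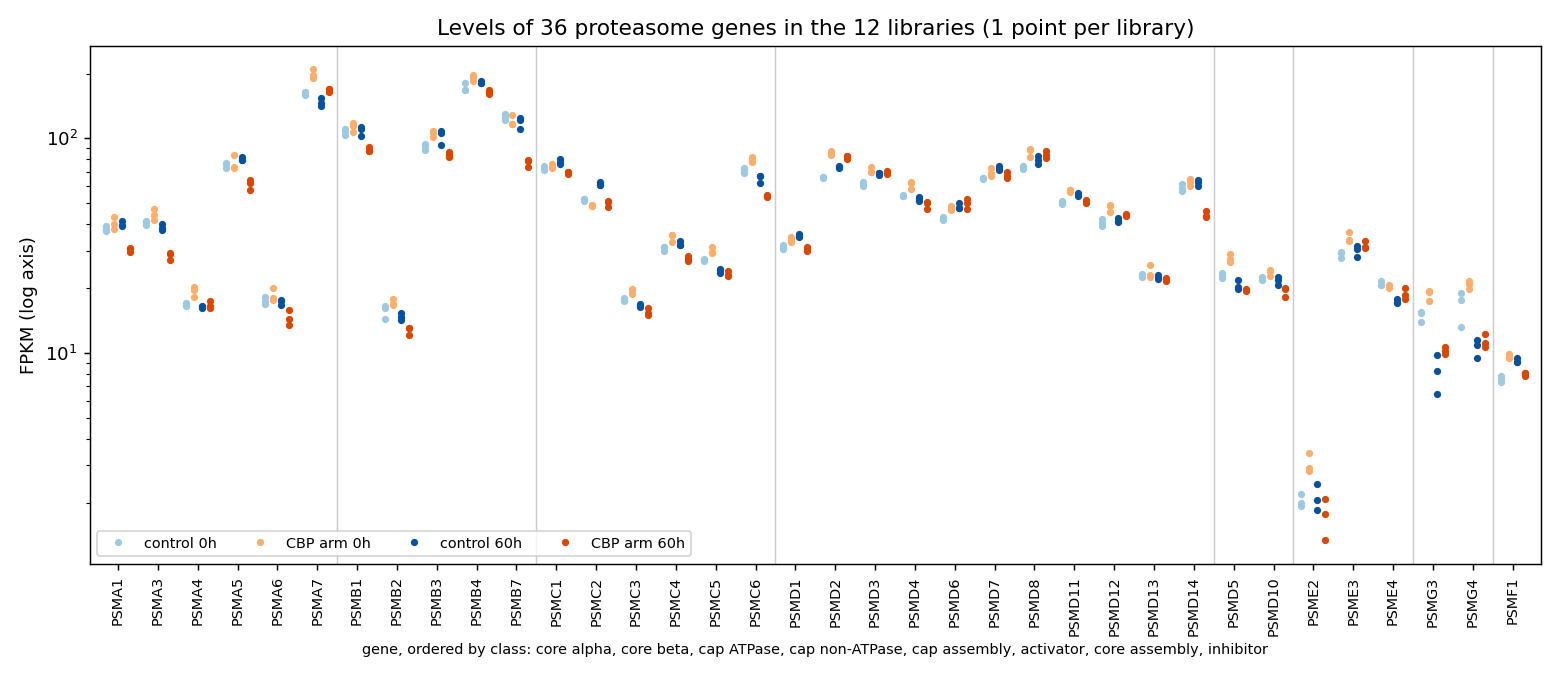
FPKM of the 36 tested proteasome genes (log axis), with 1 point per library and 4 colours for the groups, ordered by class. Within most genes the libraries of a group lie close together, and the CBP arm at 60h is the lowest group for most core subunits, PSMA7 and PSMA4 excepted.

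At 60h the core particle genes were lower in the CBP arm than in control cells. Of 11 tested core genes, 9 fell and 1 rose, with a median log2 change of -0.29, while the median of all 11636 tested genes was 0.1. Of all genes, 27% were called lower and 44.7% higher in this comparison (limma on log2(FPKM + 1), Benjamini-Hochberg adjusted p under 0.05, as for every call here). Of 22 regulatory genes, 11 fell and 2 rose, with a median of -0.09. The falls covered all 5 tested beta subunits, 4 of 6 alpha subunits and 5 of 6 cap ATPases, but 5 of 11 non-ATPase cap subunits. After median-of-ratios scaling, which sets the typical gene equal between libraries, the core counts were 9 lower and 0 higher and the regulatory counts 17 and 0, beside 35.9% of all genes lower and 33.1% higher.

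PSMB7, the catalytic subunit with trypsin-like activity (chromosome 1, 265172257 to 265235389, Sscrofa11.1), had the largest fall of the 36. Its level was 122, 111 and 124 FPKM in the control libraries at 60h and 78.8, 73.4 and 78.6 FPKM in the CBP arm. The groups did not overlap, and the mean fell by 35.4% (log2 change -0.62, SE 0.048, adjusted p = 2.22e-07). At 0h the same subunit stood at 126 ± 3.74 FPKM (SD, n = 3) in control cells and 120 ± 6.28 FPKM in the CBP arm, with overlapping libraries (log2 change -0.07, adjusted p = 0.238). Median-of-ratios scaling called PSMB7 lower at 0h too (-0.20, adjusted p = 0.00231), the 1 core gene lower there, and gave -0.75 at 60h.

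Among the other beta subunits, which are structural members of the ring in the constitutive particle, PSMB1 fell from 109 ± 5.88 to 88.8 ± 2.17 FPKM (SD, n = 3) and PSMB3 from 103 ± 8.19 to 83.6 ± 2.17 FPKM between control and the CBP arm at 60h. Both had a log2 change of -0.29. PSMB2 (log2 change -0.20) and PSMB4 (-0.14) fell less.

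The alpha subunits, which gate the entry into the barrel, were not uniform. PSMA3 measured 38.3, 39.7 and 37.6 FPKM in control cells at 60h and 29.0, 29.3 and 27.0 FPKM in the CBP arm, a log2 change of -0.43 (SE 0.044, adjusted p = 3.03e-06) without overlap. PSMA1 and PSMA5 each fell by 0.39 on the log2 scale and PSMA6 by 0.23. PSMA4 did not pass the test (log2 change 0.03, adjusted p = 0.549). PSMA7 was the exception in the other direction: it rose from 146, 141 and 154 FPKM to 170, 169 and 164 FPKM, a log2 change of 0.19 (SE 0.039, adjusted p = 0.00107). After median-of-ratios scaling this change was 0.05 and was not called (adjusted p = 0.29). PSMA3 and PSMA7 each overlap another annotated gene, a long non-coding RNA and LSM14B respectively, and the strand setting of the counting is not given. In all, 9 of the 39 members overlap another annotated gene. The others are PSMC1, PSMC5, PSMD1, PSMD6, PSMD10, PSMD14 and PSME1.

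In the cap, PSMD14, the deubiquitinase that removes ubiquitin chains from the substrate (chromosome 15, 68107379 to 68208884), fell most. It measured 63.9, 60.0 and 62.3 FPKM in control cells at 60h and 45.7, 43.5 and 43.0 FPKM in the CBP arm, so that its mean fell by 29% without overlap (log2 change -0.48, SE 0.039, adjusted p = 3.28e-07). Its annotated span overlaps TBR1 and a pseudogene. PSMD4, a ubiquitin receptor, measured 52.8, 51.3 and 53.0 FPKM against 47.0, 50.5 and 49.9 FPKM. Its call (log2 change -0.09, adjusted p = 0.0327) did not hold without the first CBP library at 60h (-0.06, adjusted p = 0.147), the first control library (-0.08, adjusted p = 0.0803) or the third control library at 60h (-0.08, adjusted p = 0.0906). PSMD11, a scaffold subunit of the cap, fell by 0.10 on the log2 scale.

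PSMD2, a large scaffold subunit at the base of the cap, had the highest log2 change of the non-ATPase subunits at both stages. It rose from 73.0, 74.3 and 73.5 FPKM in control cells to 82.3, 80.2 and 82.5 FPKM in the CBP arm at 60h (log2 change 0.15, adjusted p = 8.45e-05). With median-of-ratios scaling this change was 0.02 (adjusted p = 0.581). The other non-ATPase subunits not called at 60h (PSMD3, PSMD6, PSMD8, PSMD12 and PSMD13) had log2 changes of -0.04 to 0.08. PSMD8 was called higher without the second control library at 60h (0.11, adjusted p = 0.0387) and PSMD12 without the first CBP library at 0h (0.07, adjusted p = 0.0498). With median-of-ratios scaling 8 of the 11 non-ATPase subunits fell at 60h, PSMD3 (-0.11) and PSMD6 (-0.10) among them.

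The cap ATPases fell by less than the leading core genes. PSMC2 went from 61.4 ± 0.855 to 49.8 ± 1.57 FPKM (SD, n = 3) at 60h and so fell by 18.8% (log2 change -0.30, SE 0.027, adjusted p = 8.84e-07), and PSMC6 from 65.2 ± 2.7 to 53.8 ± 0.382 FPKM (-0.27). PSMC4 fell by 0.22 and PSMC1 by 0.17 on the log2 scale. PSMC3 changed by -0.09 (adjusted p = 0.0243), a call lost without the first CBP library (-0.07, adjusted p = 0.0939), the third CBP library (-0.09, adjusted p = 0.0689) or the third control library at 60h (-0.08, adjusted p = 0.0815). PSMC5 did not pass (-0.05, adjusted p = 0.188), but was called lower with median-of-ratios scaling (-0.18, adjusted p = 0.000793), under which all 6 ATPases fell.

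**Figure D2:**
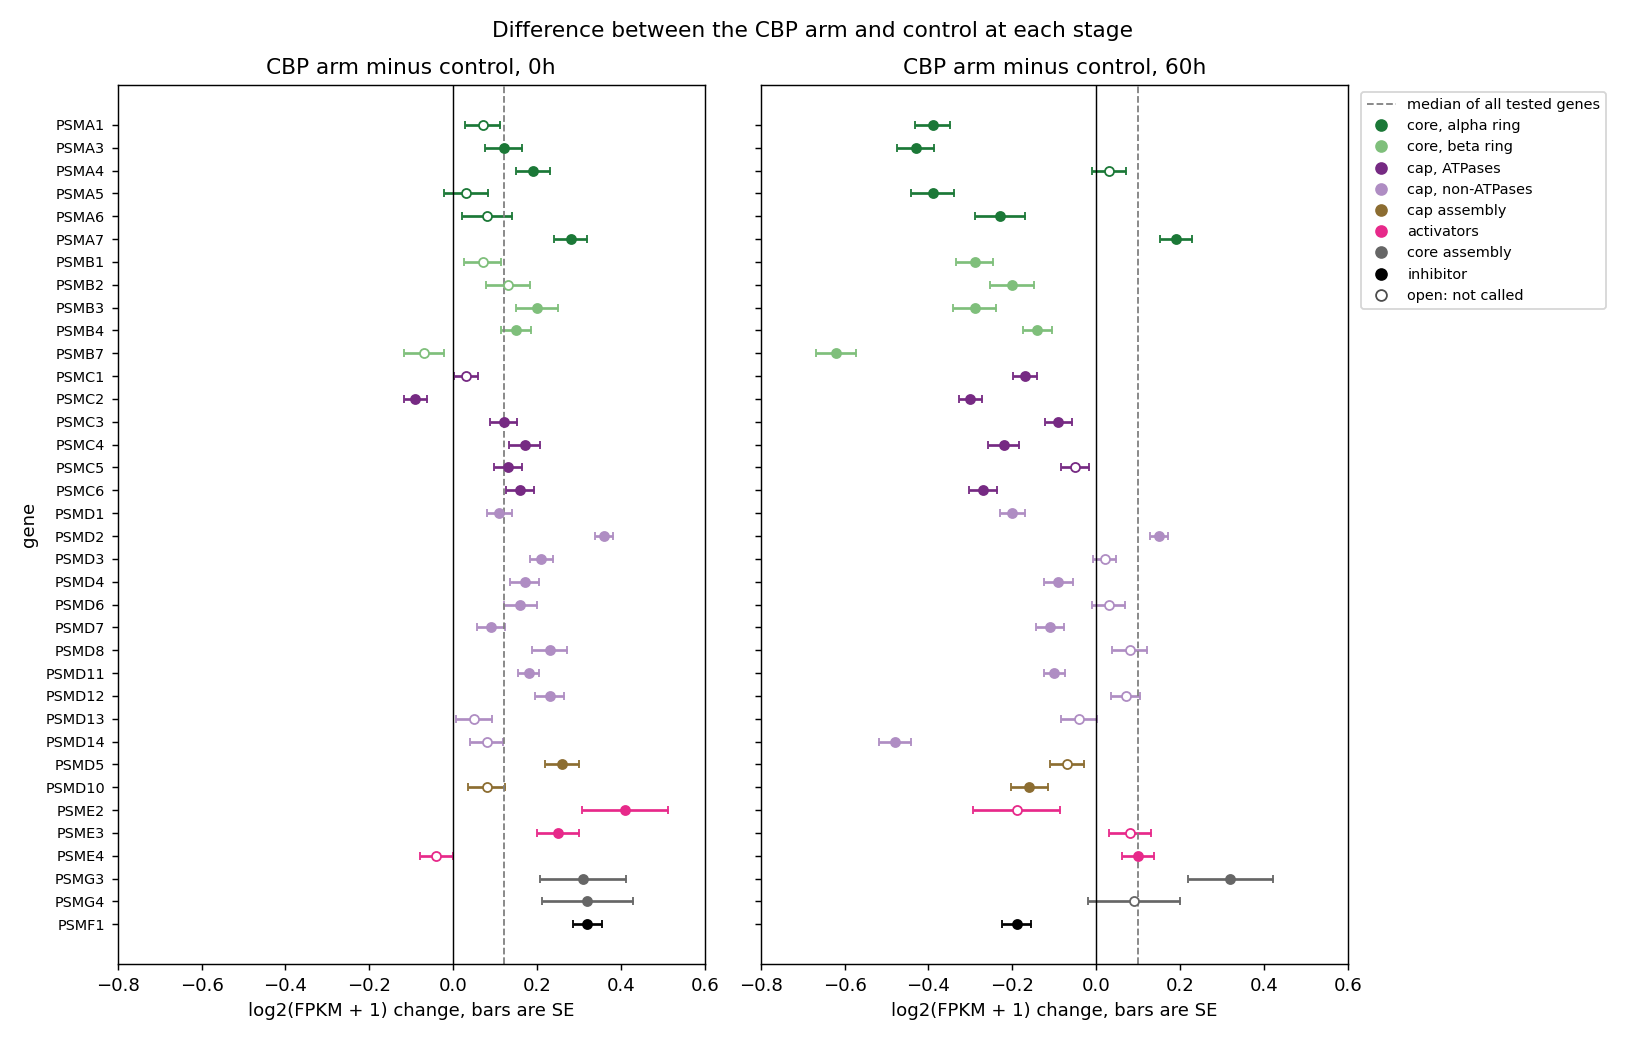
Log2(FPKM + 1) difference between the CBP arm and control (x axis, bars are SE) for the 36 tested genes at 0h (left) and 60h (right), coloured by class, with filled points for called genes and a dashed line at the median of all tested genes (0.12 and 0.1). At 0h most points lie around the dashed line, and at 60h all core genes but PSMA7 lie to its left, down to -0.62 for PSMB7.

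At 0h the proteasome genes were slightly higher in the CBP arm, by about as much as other genes. Of the core genes 5 rose and 0 fell, with a median log2 change of 0.12, and of the regulatory genes 16 rose and 1 fell, with a median of 0.16. Over all genes 44.2% were called higher and 18.1% lower, with a median of 0.12. With median-of-ratios scaling, 25.7% of all genes were called higher and 26.5% lower, the core counts were 1 higher and 1 lower, and the regulatory counts were 4 and 3. Most of the rises at 0h therefore did not stand apart from the shift of the typical gene.

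Among the 17 ATPase and non-ATPase cap subunits, the largest rise that held under that scaling was that of PSMD2. PSMD2 measured 66.2, 65.5 and 66.0 FPKM in control cells and 84.3, 86.8 and 83.9 FPKM in the CBP arm at 0h, 29% higher without overlap (log2 change 0.36, SE 0.022, adjusted p = 6.86e-08), and 0.23 after median-of-ratios scaling (adjusted p = 9.91e-06). PSMA7 rose from 163 ± 3.45 to 199 ± 9.48 FPKM (SD, n = 3; log2 change 0.28, and 0.15 after that scaling, adjusted p = 0.0138). PSMC2 was the 1 member that fell, from 51.8 ± 0.71 to 48.4 ± 0.458 FPKM (-0.09, adjusted p = 0.00873).

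Of the alternative activators, PSME2, a subunit of the interferon-inducible cap, was low. It measured 2.21, 1.94 and 2.01 FPKM in control cells and 2.82, 3.42 and 2.92 FPKM in the CBP arm at 0h (log2 change 0.41, SE 0.103, adjusted p = 0.00457; 0.31 and adjusted p = 0.0211 with median-of-ratios scaling). At 60h it measured 2.07, 1.86 and 2.45 FPKM against 2.1, 1.35 and 1.79 FPKM, with overlap (-0.19, adjusted p = 0.117), and was called lower without the first CBP library at 60h (-0.28, adjusted p = 0.0316) and with median-of-ratios scaling (-0.28, adjusted p = 0.0253). These values rest on 38 to 94 reads per library. Its partner PSME1 averaged 0.166 to 0.419 FPKM over the groups, and its span overlaps EMC9.

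PSME3, which forms a nuclear cap, rose at 0h from 28.8 ± 0.865 to 34.4 ± 1.91 FPKM (SD, n = 3, log2 change 0.25, adjusted p = 0.00106). With median-of-ratios scaling this rise was 0.12 and was not called (adjusted p = 0.0967). At 60h PSME3 was not called (0.08, adjusted p = 0.156). PSME4, which forms a single-chain cap, was 17.4 ± 0.324 FPKM in control cells and 18.8 ± 1.11 FPKM in the CBP arm at 60h. Its call there (log2 change 0.10, adjusted p = 0.0355) was lost without the first CBP library (0.06, adjusted p = 0.165), the third CBP library (0.10, adjusted p = 0.0625), the first control library (0.09, adjusted p = 0.0912) or the second control library at 60h (0.09, adjusted p = 0.0864), and its sign turned with median-of-ratios scaling (-0.03).

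In control cells the 60h stage against 0h moved few core genes. Of the core, 1 rose (PSMB3, log2 change 0.16) and 1 fell (PSMA7, -0.15), with a median of -0.02. Of the regulatory genes 9 rose and 5 fell, with a median of 0.06. Of all genes, 28.8% were called higher and 38% lower, with a median of -0.05. The regulatory rises were 7 non-ATPase subunits and the ATPases PSMC1 and PSMC2, the latter from 51.8 ± 0.71 to 61.4 ± 0.855 FPKM (SD, n = 3; log2 change 0.24, adjusted p = 6.74e-06). PSMD6 rose by 0.20 (adjusted p = 0.000831), and PSME4 fell by 0.26 on the log2 scale (adjusted p = 8.84e-05). The PSMB3 rise was lost without the first control library at 0h (0.13, adjusted p = 0.0636), the second at 60h (0.12, adjusted p = 0.0731) or the third at 60h (0.13, adjusted p = 0.0608). With median-of-ratios scaling the core counts were 4 higher and 0 lower and the regulatory counts 12 and 2, beside 33.9% of all genes higher and 32.2% lower.

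In the CBP arm the same interval lowered all 11 tested core genes. Their median log2 change was -0.33 and their range -0.64 (PSMB7) to -0.20 (PSMA4). Of the regulatory genes 16 fell and 0 rose, with a median of -0.13, and of all genes 41.5% were called lower and 31.3% higher. PSMC6 fell from 79.3 ± 2.2 to 53.8 ± 0.382 FPKM (SD, n = 3; log2 change -0.55, adjusted p = 1.87e-08), the largest fall among the ATPases, and PSMD14 fell by 0.49. PSMD5, an assembly chaperone of the cap, fell from 27.6 ± 1.14 to 19.7 ± 0.201 FPKM (log2 change -0.46), and PSME2 by 0.57 (adjusted p = 0.000341). With median-of-ratios scaling the core counts stayed at 11 lower and 0 higher, while the regulatory counts were 10 and 2, beside 35.9% of all genes called in each direction.

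**Figure D3:**
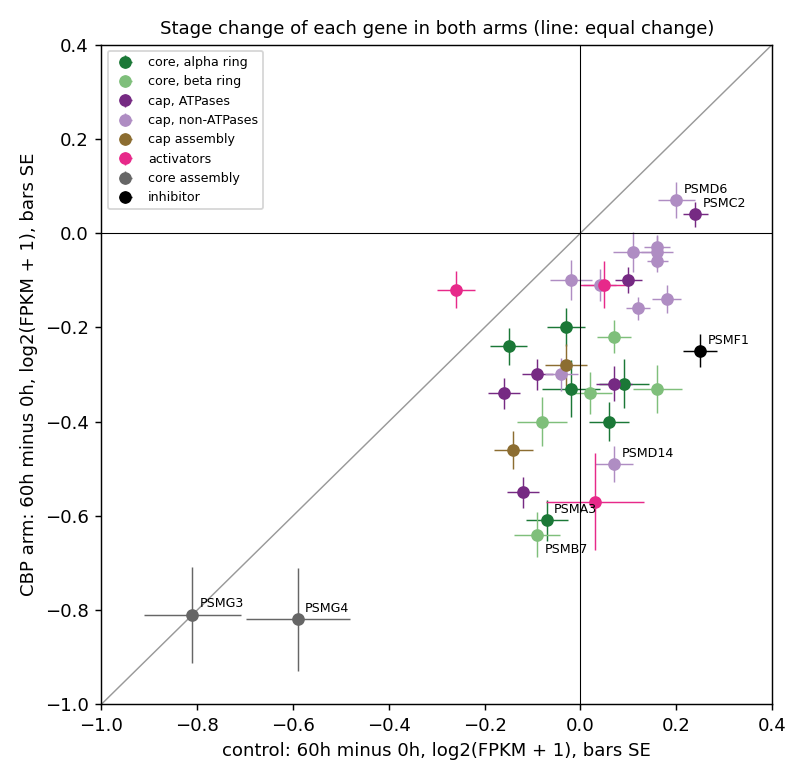
Log2(FPKM + 1) change from 0h to 60h in control cells (x axis) against the same change in the CBP arm (y axis), bars are SE, 1 point per tested gene coloured by class, with a line of equal change. Most points lie below the line, and PSMG3 lies on it at -0.81 in both arms.

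The arm difference at 60h minus that at 0h (the interaction) was called lower for 10 of 11 core genes and 17 of 22 regulatory genes, and higher for 0 and 1. Over all genes 26.7% were called lower and 24.3% higher. The medians were -0.36 for core and -0.21 for regulatory genes, against -0.01 for all genes. Median-of-ratios scaling gave 10 and 17 lower too, beside 26.1% of all genes lower and 24.3% higher. The largest core values were -0.55 for PSMB7 (adjusted p = 3.15e-05) and -0.54 for PSMA3 (adjusted p = 1.78e-05). In the regulatory set they were -0.60 for PSME2 (adjusted p = 0.00473) and -0.56 for PSMD14 (adjusted p = 5.32e-06). The comparisons share groups, so their counts are not independent of each other.

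Core and regulatory genes were next set against each other within each library, as the mean log2(FPKM + 1) of the 11 core genes minus that of the 22 regulatory genes. The difference was 0.632, 0.667 and 0.687 in control cells at 0h and 0.622, 0.653 and 0.598 in the CBP arm at 0h. It was 0.614, 0.629 and 0.623 in control cells at 60h and 0.474, 0.487 and 0.426 in the CBP arm at 60h. All 3 CBP libraries at 60h lay below the other 9. A scaling factor common to a library cancels in this difference, apart from the pseudocount. Summed over genes, the core to cap ratio of FPKM was 1.02 to 1.05 and 0.997 to 1.04 at 0h, and 0.959 to 0.993 and 0.882 to 0.909 at 60h, for control and the CBP arm respectively. The cap here is the 17 ATPase and non-ATPase genes. No test was made on these scores.

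**Figure D4:**
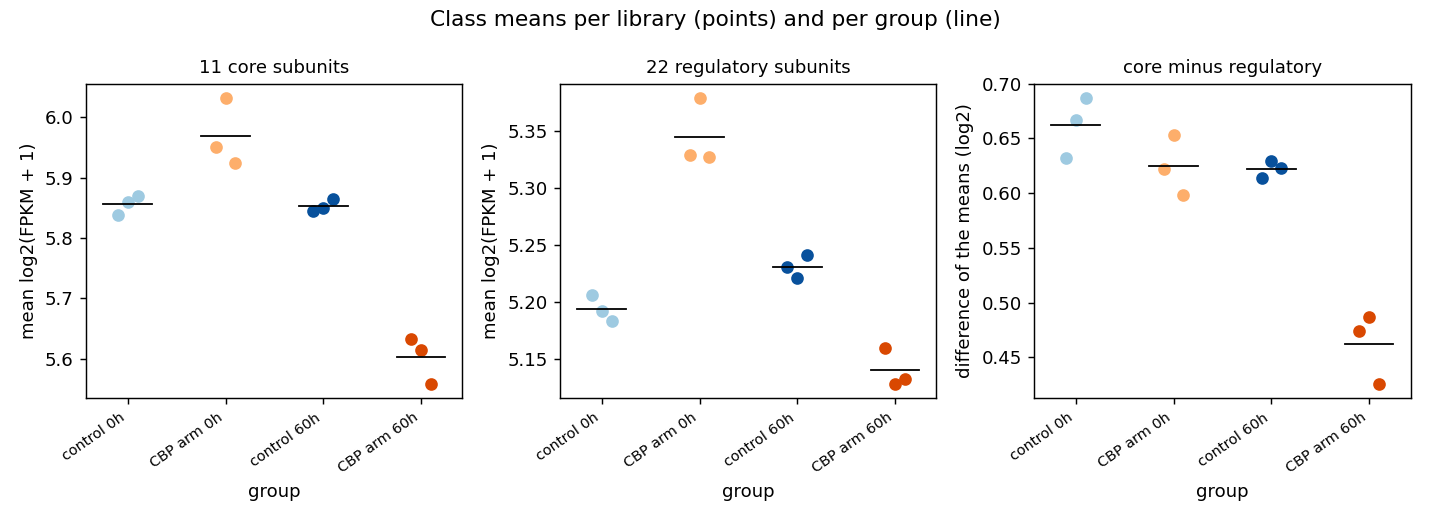
Mean log2(FPKM + 1) of the 11 core genes (left), of the 22 regulatory genes (middle) and their difference (right) in each library, with a line at the group mean; the vertical axes do not start at 0. The difference is 0.426 to 0.487 in the CBP arm at 60h and 0.598 to 0.687 in the other 9 libraries.

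The core assembly factors PSMG3 and PSMG4 were not called in the interaction (log2 values 0.0 and -0.23). The inhibitor PSMF1 was called lower there, as were most members. PSMG3, a chaperone that helps form the alpha ring, measured 15.5, 15.3 and 13.9 FPKM in control cells at 0h and 8.22, 6.48 and 9.76 FPKM at 60h (log2 change -0.81, SE 0.102, adjusted p = 1.97e-05). In the CBP arm it went from 19.3, 17.5 and 19.4 FPKM to 9.94, 10.7 and 10.2 FPKM (-0.81, adjusted p = 1.53e-05), so neither arm overlapped between stages. Its partner PSMG4 fell by 0.59 in control cells and by 0.82 in the CBP arm on the log2 scale. PSMG3 and PSMG4 had the largest stage changes of the 36 genes in each arm. At 60h PSMG3 was higher in the CBP arm (0.32, adjusted p = 0.0151; 0.20 and adjusted p = 0.104 with median-of-ratios scaling). PSMG3 rests on 90 to 273 reads per library.

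The rises of PSMG3 and PSMG4 in the CBP arm at 0h (0.31 and 0.32) were not called with median-of-ratios scaling (adjusted p = 0.143 and 0.145). Both were also lost without the first CBP library, the third CBP library or the third control library at 0h, with adjusted p up to 0.0665 for PSMG3 (0.27) and 0.0801 for PSMG4 (0.17). PSMF1, an inhibitor of the core particle, measured 7.58 ± 0.219 FPKM (SD, n = 3) in control cells and 9.68 ± 0.231 FPKM in the CBP arm at 0h, and 9.23 ± 0.189 and 7.98 ± 0.143 FPKM at 60h. Its arm difference was thus 0.32 at 0h and -0.19 at 60h, an interaction of -0.50 (adjusted p = 5.57e-06). POMP, the maturation factor of the core and not a member by symbol, was low (1.48 to 2.19 FPKM over the group means) and was not called in either arm comparison.

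The 3 immunoproteasome subunits, which replace the catalytic beta subunits in interferon-exposed cells, were set beside the constitutive ones. PSMB8 measured 7.42, 6.96 and 6.33 FPKM in control cells at 60h and 1.39, 1.44 and 1.2 FPKM in the CBP arm, 5.14-fold lower (log2 change -1.75, SE 0.058, adjusted p = 1.27e-10). PSMB9 fell from 2.88 ± 0.217 to 1.18 ± 0.276 FPKM (SD, n = 3; -0.84), and PSMB10 from 2.74 ± 0.103 to 2.38 ± 0.0753 FPKM (-0.15, adjusted p = 0.0129). The 60h call of PSMB10 held with each library left out in turn (adjusted p up to 0.0488). At 0h PSMB10 rose by 0.60 (adjusted p = 4.95e-07), while PSMB8 (0.11) and PSMB9 (0.20) were not called. Without the first CBP library at 0h PSMB9 was called higher (0.32, adjusted p = 0.0203). At 60h PSMB8 stood at 6.9 ± 0.546 FPKM in control cells, and PSMB7 at 119 ± 6.78 FPKM. PSMB7 was the only constitutive catalytic subunit matched by symbol, so these 2 are not set here as a matched pair. FPKM divides by the gene model length, recovered as 2055 bases for PSMB8 and 985 for PSMB7. All 7 tested genes of antigen processing and interferon signalling were lower in the CBP arm at 60h, ERAP1 (-1.28) and TAP2 (-1.18) most, whereas at 0h 3 rose, led by IRF1 (0.63), and 2 fell, NLRC5 (-0.73) and ERAP1 (-0.28). Of all genes 27% were lower at 60h, and at 0h 44.2% were higher and 18.1% lower. With median-of-ratios scaling the 7 falls at 60h stayed, and at 0h the counts turned to 2 higher and 3 lower, with TAP1 lost (0.04, adjusted p = 0.42) and B2M called lower (-0.27, adjusted p = 0.0205). Under that scaling 35.9% of all genes were lower at 60h, and at 0h 25.7% were higher and 26.5% lower.

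**Figure D5:**
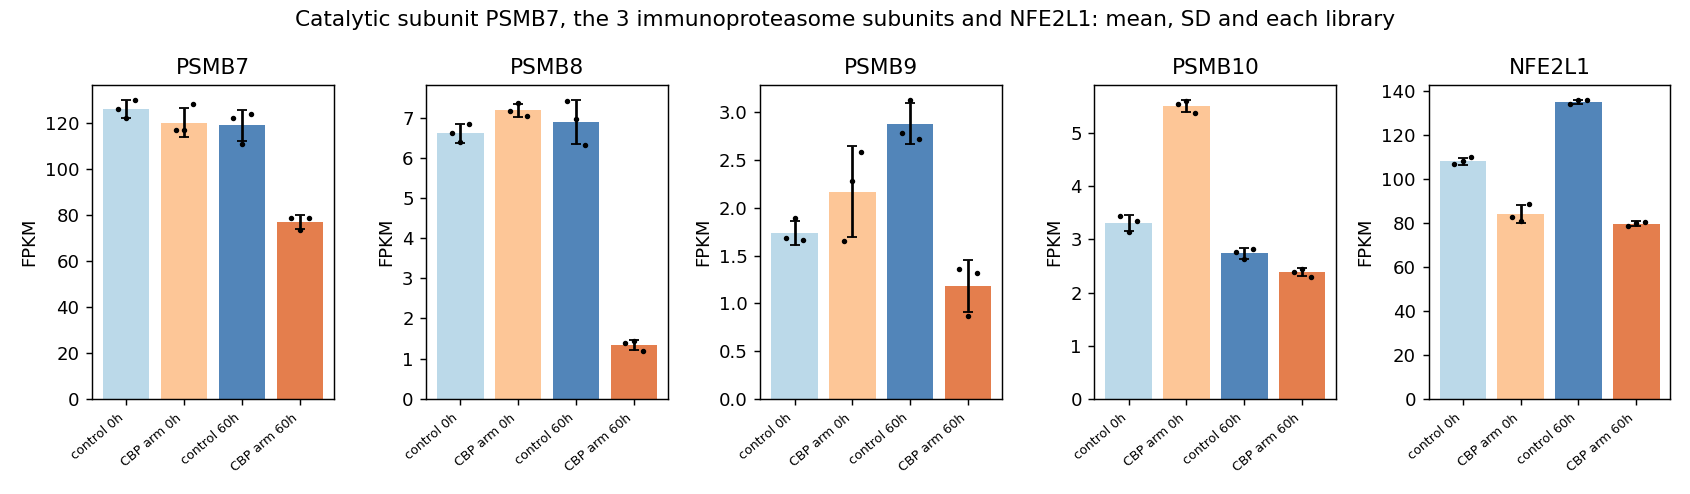
FPKM of PSMB7, PSMB8, PSMB9, PSMB10 and NFE2L1 in the 4 groups, with bars at the mean of 3 libraries, error bars of 1 SD and 1 point per library; each panel has its own axis starting at 0. PSMB7 and PSMB8 are lowest in the CBP arm at 60h (76.9 and 1.34 FPKM), and NFE2L1 is lower in the CBP arm at both stages.

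NFE2L1 encodes a transcription factor known to drive proteasome subunit genes when the proteasome is impaired, working with small MAF proteins. It measured 107, 108 and 110 FPKM in control cells and 82.6, 80.8 and 88.8 FPKM in the CBP arm at 0h (log2 change -0.37, adjusted p = 1.2e-06). At 60h it measured 134, 136 and 136 FPKM against 78.4, 79.9 and 80.5 FPKM (-0.76, SE 0.032, adjusted p = 9e-10). The arms did not overlap at either stage. Of the 8 tested genes of its pathway, 2 rose and 4 fell at 0h, and 1 rose and 4 fell at 60h, beside 44.2% of all genes higher and 18.1% lower at 0h, and 44.7% and 27% at 60h. With median-of-ratios scaling 0 rose and 5 fell at 0h, and 0 rose and 7 fell at 60h. Under that scaling 25.7% of all genes were higher and 26.5% lower at 0h, and 33.1% and 35.9% at 60h. The small MAF gene MAFG fell by 0.61 at 0h and by 0.92 at 60h on the log2 scale, and MAFF by 0.88 and 0.62. VCP, the segregase that extracts NFE2L1 protein from the membrane, rose by 0.16 and 0.18, and KEAP1, which restrains the related factor NFE2L2, rose by 0.10 at 0h. The KEAP1 call was lost without the first CBP library at 0h (0.08, adjusted p = 0.0615). With median-of-ratios scaling KEAP1 was at -0.03 and VCP at 0.03 and 0.05, none of them called.

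Genes whose products work with the proteasome did not move as 1 block. Of 16 tested associated factors, 5 rose and 3 fell at 0h, and 5 rose and 7 fell at 60h. Over all genes the shares higher and lower were 44.2% and 18.1% at 0h, and 44.7% and 27% at 60h. With median-of-ratios scaling the balance at 0h turned, to 2 that rose and 6 that fell, and at 60h the counts were 2 and 9, beside 25.7% and 26.5% of all genes at 0h and 33.1% and 35.9% at 60h. At 60h the shuttle factor UBQLN2 rose by 0.57 and the ubiquitin receptor ADRM1 by 0.28, while ZFAND2A fell by 0.68. AKIRIN2, which brings proteasomes into the nucleus, fell by 0.34 at both stages. At 0h UBQLN4 rose by 0.32 and the ubiquitin ligase UBE3C by 0.22, while ZFAND5 fell by 0.19 (adjusted p = 0.041). The ZFAND5 call was lost without the first or second control library at 0h, the first or second CBP library at 0h, or the first or second CBP library at 60h (-0.19 to -0.16, adjusted p from 0.0504 to 0.123). Of 7 tested genes of ubiquitin supply, 4 rose and 0 fell at 0h, and 3 rose and 1 fell at 60h. With median-of-ratios scaling 2 rose and 0 fell at 0h, and at 60h the balance turned to 2 that rose and 3 that fell. The ubiquitin-activating enzyme UBA1 rose by 0.38 at both stages, its relative UBA6 by 0.31 at 0h, and the ubiquitin gene UBB by 0.36 at 60h. NPLOC4, a cofactor of VCP, was the 1 that fell at 60h (-0.10) before that scaling.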

How the data were processed

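RNA-seq of porcine muscle satellite cells was analysed in 12 libraries, 3 in each of 4 groups taken from the labels. The submitters' processing notes name Trimmomatic, featureCounts and the build Sscrofa11.1. The sources used here do not give the aligner, the annotation release or the strand setting. The authors deposited FPKM values per gene and library. Because the authors counted whole reads, totals were recovered from the FPKM steps (all 19309 genes above 0 in at least 3 libraries gave whole reads, tolerance 0.001). Values of log2(FPKM + 1) of 11636 genes went into limma 3.58.1 (R 4.3.3), with 4 group means and a trended empirical Bayes spread; tests were two-sided, adjusted by Benjamini-Hochberg over all these genes. Log2 changes understate low genes. In simulated data for the 0h arm comparison over 11636 genes, 11436 were unchanged, and 13 of these were called. Of genes changed 1.5-fold 44 of 50 were called, and of those changed 1.2-fold 30 of 50. In the deposited data 62.3% of all genes were called in that comparison. Benjamini-Hochberg adjustment depends on the share of changed genes, so whether these rates hold for the calls reported here was not tested.

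Members, lists and tests were chosen with earlier results of these data known. Named genes are the catalytic, receptor, activator, assembly and inhibitor genes, the largest rise and fall of each class per comparison, and the 2 largest called changes each way of the pathway lists; PSMA1, PSMA6, PSMB1, PSMB2 and others were added to complete their class. 1 gene that this rule takes from a pathway list is not reported here. PSMA6's identifier differs from that of the reference table. Alternatives tried were other pseudocounts, filters, scalings, samples in the fit, a replicate block, leaving out each library, and limma-voom on recovered reads, the last chosen after seeing the data.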

Additional observations from a re-analysis of the deposited data

Results flagged for a closer look

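The arm difference at 60h differed from that at 0h, by limma's interaction term at an adjusted p under 0.05, for 29 members and 5 genes set beside them. Of the 36 tested members 28 were called lower and 1 higher. Over all tested genes 26.7% were called lower and 24.3% higher, so a difference between stages was common. All values are log2 differences of differences. Among core genes they were -0.46 for PSMA1, -0.54 for PSMA3, -0.17 for PSMA4, -0.41 for PSMA5, -0.31 for PSMA6, -0.36 for PSMB1, -0.32 for PSMB2, -0.49 for PSMB3, -0.29 for PSMB4 and -0.55 for PSMB7. Among cap ATPases they were -0.20 for PSMC1, -0.20 for PSMC2, -0.21 for PSMC3, -0.39 for PSMC4, -0.18 for PSMC5 and -0.43 for PSMC6. Among non-ATPase cap genes they were -0.31 for PSMD1, -0.21 for PSMD2, -0.19 for PSMD3, -0.26 for PSMD4, -0.20 for PSMD7, -0.28 for PSMD11, -0.15 for PSMD12 and -0.56 for PSMD14. The cap chaperones PSMD5 and PSMD10 had -0.33 and -0.24, the activators PSME2 and PSME4 -0.60 and 0.14, and the inhibitor PSMF1 -0.50. The immunoproteasome genes PSMB8, PSMB9 and PSMB10 had -1.86, -1.03 and -0.74, NFE2L1 had -0.39, and PSMA2, known in the table by identifier only, had -0.29. The call of PSME4 held without the second CBP library at 60h and was lost without each of the other 11 libraries in turn (adjusted p from 0.0514 to 0.107), and those of PSMA4 and PSMD12 in some, for example without the second CBP library at 0h (-0.13, adjusted p = 0.0657) and the third control library at 0h (-0.13, adjusted p = 0.0506).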

How the results depend on the processing

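Across 215 single-gene values of 43 genes, pseudocounts of 0.1 and 0.5 changed no direction or call. Median-of-ratios scaling changed the core counts from 5 to 1 higher and 0 to 1 lower at 0h, and from 1 to 0 higher at 60h. It changed the regulatory counts from 16 to 4 higher and 1 to 3 lower at 0h, and from 2 to 0 higher and 11 to 17 lower at 60h. For the control stage change it gave 4 core genes higher and 0 lower and 2 regulatory genes lower, and for the CBP stage change 2 regulatory genes higher and 10 lower. TPM scaling gave 1 regulatory gene higher at 60h, 4 core genes higher, 0 core genes lower and 1 regulatory gene lower for the control stage change, and 4 regulatory genes higher and 9 lower for the CBP stage change. Quantile scaling gave 2 regulatory genes lower at 0h, 1 higher at 60h, 4 core genes higher, 0 core genes lower and 3 regulatory genes lower for the control stage change, and 2 regulatory genes higher for the CBP stage change. A fit of only the groups compared gave 2 core genes higher for the control stage change, and no filter gave 0 regulatory genes higher in the interaction. The cause was not tested. The core falls at 60h stayed at 9 under each of the 3 scalings. Median-of-ratios scaling called 35.9% of all genes lower in that comparison. For TPM scaling, quantile scaling, the fit of only the groups compared and no filter, the shares of all genes called are not given here. Counts under those settings therefore cannot be set against all genes.

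With median-of-ratios scaling the sign turned for 13 of the 36 tested members at 0h, 8 at 60h, 5 in the control stage change, 4 in the CBP stage change and 0 in the interaction. Among these, the genes called with or without that scaling were PSMA3 (-0.01), PSMC1 (-0.10, adjusted p = 0.0137), PSMC3 (-0.01), PSMD1 (-0.02) and PSMD7 (-0.04) at 0h, PSMD3 (-0.11), PSMD6 (-0.10) and PSME4 (-0.03) at 60h, and PSMD2 in the CBP stage change (0.01). With TPM scaling signs of called genes turned in the CBP stage change for PSMC1 (0.01), PSMD2 (0.06), PSMD3 (0.09), PSMD12 (0.00), PSMD13 (0.01) and NFE2L1 (0.04).

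With each library left out in turn, core counts ranged from 4 to 7 higher at 0h and stayed at 9 lower and 1 higher at 60h. Regulatory counts ranged from 15 to 16 higher at 0h, and from 1 to 3 higher and 9 to 11 lower at 60h. The 60h count of 1 came without the first CBP library, the third CBP library or the first control library at 60h. In the control stage change, core counts ranged from 0 to 2 higher and 1 to 2 lower: PSMB3 was lost without 3 of the control libraries, PSMA5 was gained without the second CBP library at 0h, PSMB4 without the third control library at 0h and, lower, PSMB2 without the first. In the CBP stage change regulatory counts ranged from 0 to 1 higher (PSMD6 without the second and PSMC2 without the third CBP library at 60h) and 14 to 17 lower, and in the interaction from 0 to 1 higher and 16 to 19 lower. Same-numbered libraries showed no shared deviation (18 pairs, r from -0.094 to 0.082). This cannot show whether they came from the same culture or batch. With the replicate block, 2 core genes instead of 1 were lower in the control stage change, and no other count moved by over 1.5 times. limma-voom on recovered reads, added after seeing the data, moved none of these counts by over 1.5 times. The planned edgeR test was not run, because the deposited unit is not counts. Depth limits PSME1, PSME2 and PSMG3 most.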

Other observations

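The reference table names 2 further subunits that the deposited table lists by identifier only, so they are not among the 39 genes. PSMA2, an alpha ring subunit, measured 57.3 ± 1.51 FPKM (SD, n = 3) in control cells and 51.5 ± 3.06 FPKM in the CBP arm at 60h, without overlap (limma log2 change -0.15, adjusted p = 0.00758). PSMD9, an assembly chaperone of the cap, measured 15.6 ± 0.618 and 16.8 ± 0.714 FPKM there and was not called (0.10, adjusted p = 0.078).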
